A study of Mus musculus with 6 samples.

Results

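The genes described here are 40 DNA replication genes, followed in cells sorted from newborn mouse kidneys with and without the bradykinin B2 receptor. They encode proteins that license replication origins, unwind DNA, synthesise both strands, supply nucleotides and repackage new DNA into chromatin. They were listed by name, with earlier results of these data known but no measured value in the rule, and found through the RefSeq accessions of the array's probes. All 40 had a probe, out of 20887 genes with a named probe, and all 40 were among the 14586 genes tested. They had 45 probes, of which 44 were tested, and the untested one, a second probe of Pole, was never well above background.

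Gene expression was measured on 6 two-colour Agilent mouse oligonucleotide arrays in GFP and tdTomato double-positive collecting duct cells. These were sorted by FACS from salt-stressed kidneys on postnatal day 1. The 3 WT pools came from Hoxb7cre+; R26RtdTomato; Bdkrb2+/+ mice and the 3 MUT pools from Hoxb7cre+; R26RtdTomato; Bdkrb2f/f mice, all on a C57BL/6 background. Both groups thus carried the Cre driver of Hoxb7, a gene of the ureteric bud lineage, and the tdTomato reporter, and both were salt-stressed. Samples are labelled as pools, without a count of the mice behind each. Cy5 carried the pool and Cy3 carried WT pool 1 on every array, so values are log2 ratios to WT pool 1, and that pool's own array set 1 RNA against itself. The reference cancels when the groups are compared.

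Replication begins at origins bound by the origin recognition complex, to which CDC6 and CDT1 bring the ring-shaped MCM helicase while the cell is in G1. In S phase CDC45 and the GINS complex activate the helicase, polymerase alpha with primase lays down primers, and polymerases delta and epsilon extend them with the help of the PCNA clamp. Genes of this machinery are transcribed mainly as cells enter S phase, under E2F transcription factors, which makes their mRNA a common readout of how many cells of a sample are cycling. In the newborn kidney, nephron progenitors and the growing ureteric tips divide, while principal and intercalated cells of the collecting duct mature.

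Promoters are shown first because E2F recognition words, the sequences through which this control is known to run, are common in them. A promoter was taken as the RefSeq stretch of 300 bases from 250 before to 50 after a start site in the GRCm38.p6 build, and 33 of the 40 genes had an entry, some with more than 1 start site. The E2F words TTTCCCGC, TTTGGCGC, TTTCGCGC and TTTGCCGC, searched on both strands and allowed to overlap, occurred in 14 of these 33 genes (42.4%) and in 704 of 27025 genes overall (2.6%), tested or not. Among tested genes with a promoter entry, the nearer background because every member was tested, 496 of 11568 held a word. Over promoters of this length, 2.26% of 32851 held such a word. The stretches below show every member whose word lies before the start site in full, and Mcm3, the member with the largest rise, whose words lie just after it. Stretches run 5′ to 3′ on the strand of the gene, with positions counted from the start site. Capitals mark the E2F words, and where 2 words overlap the capitals run together.

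Cdc6, first word from position -138, chr11:98907991-98908050, plus strand: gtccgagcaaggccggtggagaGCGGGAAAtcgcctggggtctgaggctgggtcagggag
Orc1, first word from position -27, chr4:108579384-108579443, plus strand: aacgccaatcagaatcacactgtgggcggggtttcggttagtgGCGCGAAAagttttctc
Mcm5, first word from position -153, chr8:75109329-75109388, plus strand: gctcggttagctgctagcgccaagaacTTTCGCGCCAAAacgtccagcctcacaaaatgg
Mcm6, first word from position -110, chr1:128359736-128359825, minus strand: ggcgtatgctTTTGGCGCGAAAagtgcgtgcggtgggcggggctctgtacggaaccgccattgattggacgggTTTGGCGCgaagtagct
Mcm7, first word from position -165, chr5:138172014-138172073, minus strand: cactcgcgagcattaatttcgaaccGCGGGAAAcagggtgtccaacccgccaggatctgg
Gins3, first word from position -41, chr8:95633489-95633548, plus strand: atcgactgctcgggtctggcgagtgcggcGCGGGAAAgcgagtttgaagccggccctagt
Pola1, first word from position -138, chrX:93632256-93632315, minus strand: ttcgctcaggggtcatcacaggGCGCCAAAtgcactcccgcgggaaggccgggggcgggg
Rfc3, first word from position -10, chr5:151651209-151651268, minus strand: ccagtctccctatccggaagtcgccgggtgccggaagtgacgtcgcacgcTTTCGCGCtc
Mcm3, first word from position 20, chr1:20820266-20820295, minus strand: tgGCGGGAAAacttgggaagtTTTGGCGCc

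Mcm5 and Mcm6 each held a pair of overlapping words, one on each strand. Mcm7 and Rfc3 each had a further word after the start site, outside the printed stretch. The other members with a word were Cdt1, Lig1, Mcm8, Pold1 and Pole2, each with 1 word after the start site. The CHR word TTTGAA, an element of genes of G2 and mitosis, was distributed otherwise. On either strand it lay in 4 of the 33 replication genes (12.1%) and in 13 of 18 genes of a G2 and mitosis list (72.2%), against 20.2% of all genes. CCAAT boxes, searched as CCAAT on both strands, stood in 22 of the 33 genes (66.7%), and GC boxes, searched as GGGCGG, in 24 (72.7%). The G2 and mitosis list had higher shares of both, 16 of 18 genes (88.9%) and 15 of 18 (83.3%), so neither box was particular to replication genes. Over all genes, tested or not, these shares were 41.1% and 38.2%. For these boxes the share among tested genes alone was not counted. Among genes that carry an E2F word but are not in the replication set, 482 were tested, and 20.7% of them rose in MUT pools and 13.7% fell, against 13.6% and 18.6% of 11568 tested genes with a promoter entry. Within the replication set, 11 of 14 genes with a word and 14 of 19 without one rose, with median log2 differences of 0.56 and 0.50. A match of these letters is a description of the sequence and was not tested for binding.

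Most of the replication genes were higher in MUT pools. In limma's fit across all probes, with Benjamini-Hochberg adjustment and a call at an adjusted p under 0.05, 31 of the 40 genes (77.5%) rose and 0 fell. Over all 14586 tested genes 14% rose and 18.8% fell. The median log2 difference of the 40 genes was 0.55, which 10.3% of all genes exceeded, and that of all genes was -0.02. Every member lay above 0, from 0.03 for Rpa1 to 1.10 for Mcm3. In 36 of the 40 genes all MUT pools lay above all WT pools, against 24.2% of all genes. All MUT pools lay below all WT pools in 28.3% of all genes, so the groups did not overlap in 52.6%. Over all tested probes 26.1% were called in either direction.

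**Figure D1:**
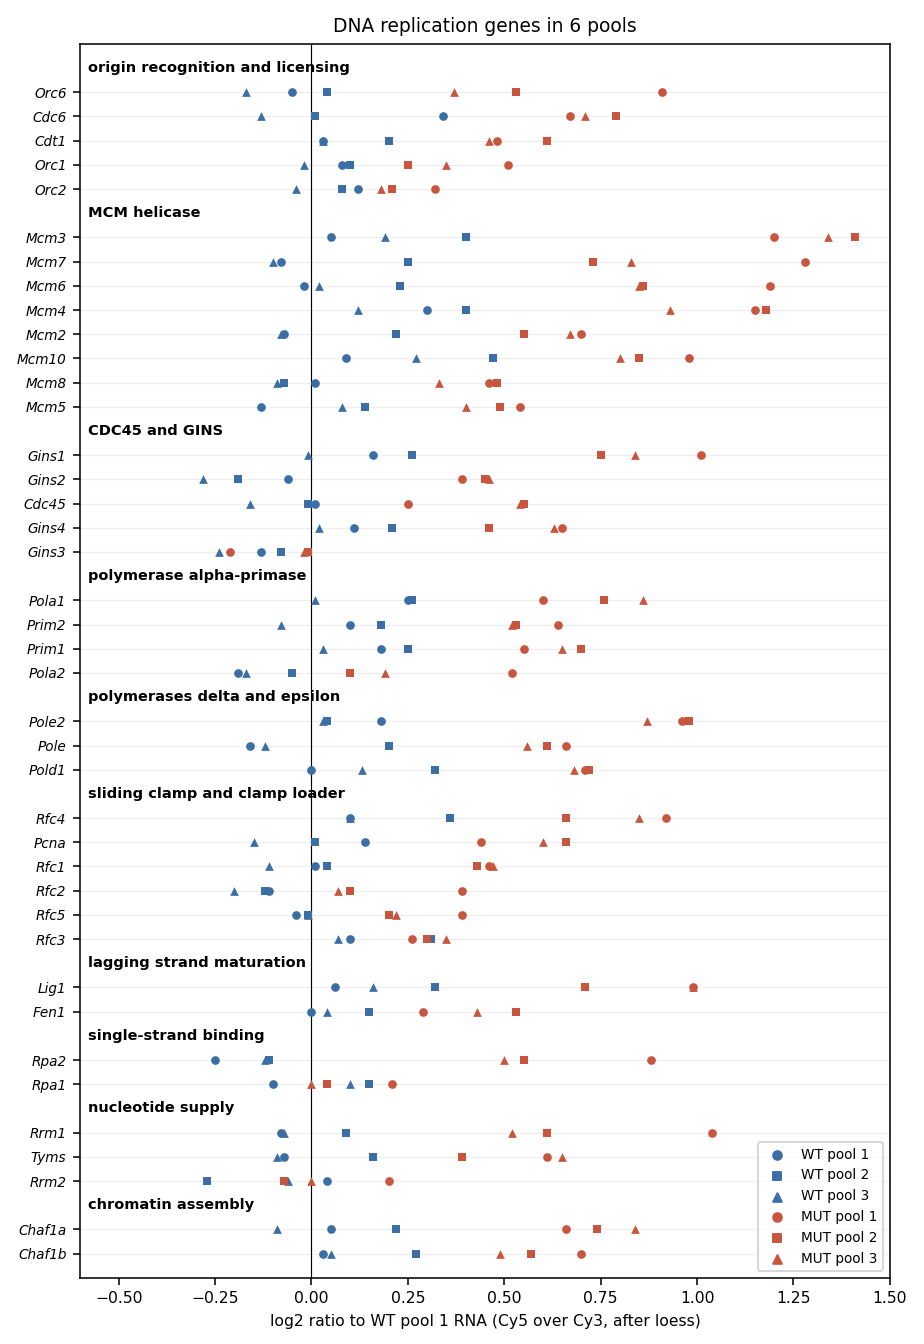
Log2 ratio to WT pool 1 RNA (horizontal axis, Cy5 over Cy3 after loess) of the 40 replication genes, grouped by complex, with 1 point per pool, WT in blue and MUT in red. MUT points lie to the right of the WT points in 36 rows. They overlap for Gins3, Rfc3, Rpa1 and Rrm2.

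Most members changed by less than 2-fold, as did 75.9% of all genes called higher. Folds of the called members ran from 1.28 to 2.15, and 1 member, Mcm3, reached 2-fold, as 492 genes called higher did in all. At least 1.5-fold was reached by 17 members. The SD of the change over members was 0.24, against 0.59 over all genes, so the members' changes spanned a narrower range. By pool, the median log2 ratio of the 40 genes was 0.02, 0.16 and -0.03 for the WT pools in number order, and 0.63, 0.55 and 0.53 for the MUT pools. The groups did not overlap in this median. WT pool 2 was the highest WT pool in 31 members, and MUT pool 1 was the highest MUT pool in 22 and the lowest in 11.

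**Figure D2:**
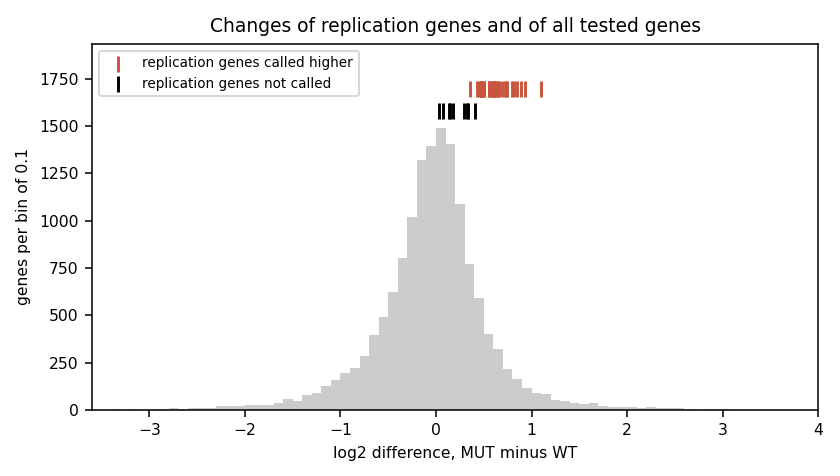
Number of genes per bin of 0.1 (vertical axis) by log2 difference of MUT minus WT (horizontal axis) for all 14586 tested genes, in grey. Ticks above the bars mark the 31 replication genes called higher, in red, and the 9 not called, in black. All ticks lie between 0.03 and 1.10, on the right side of a distribution centred near 0.

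How many members passed depended on the WT pools. Without WT pool 3, 15 of 40 rose, with a median of 0.49, where 6.83% of all genes rose. With a block for slide row, which sets the MUT pools against WT pool 1 alone because WT pools 2 and 3 lay in the other row, 8 rose, with a median of 0.49, where 3.43% of all genes rose. These 8 were Lig1, Mcm10, Mcm3, Mcm6, Pold1, Pole, Pole2 and Rpa2. No member was called lower in any of these fits, and nothing in the labels says that the row was a batch.

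Marker genes of other cell types differed between the groups in both directions. Of 11 tested markers of nephron progenitors, a dividing population that the sort was not aimed at, 10 rose and 0 fell, with list medians from 1.54 to 2.20 over the MUT pools and from -0.16 to 0.04 over the WT pools. Six2 and Cited1, regulators of these progenitors, rose by 2.56 ± 0.25 (SE, n = 3 pools per group) and 2.13 ± 0.33 on the log2 scale. Of 16 renal stroma markers 13 rose and 0 fell, with medians from 1.17 to 1.28 in MUT pools and from -0.78 to 0.12 in WT pools. Of 12 leukocyte markers 9 rose, 2 were not called and 1 fell, which was Ptprc, at -0.43 ± 0.11. Of 10 early nephron markers 7 rose and 0 fell. Endothelial, loop of Henle and distal tubule, and erythroid markers were mostly lower. Of these, 12 of 14, 14 of 14 and 7 of 8 were called lower, and 0, 0 and 1 higher. Of 9 tested podocyte markers 2 rose and 0 fell, and of 13 proximal tubule markers 0 rose and 4 fell. All 10 tested principal cell and all 12 intercalated cell markers fell, with medians from -1.98 to -1.72 and from -2.62 to -2.24 in MUT pools. All 10 markers of the ureteric bud tip, the dividing part of the sorted lineage, were tested, and 0 rose and 1 fell. Fewer cells of a type and less RNA per cell cannot be told apart in such pools. Of the nephron progenitor markers, 10 of 11 were well above background on every WT array, Six2 and Cited1 among them, and 11 of 11 on every MUT array. Among the called markers, Nr3c2 of principal cells was well above background on no MUT array, and Cd53 of leukocytes on no WT array. Each passed the filter only through the group where it was higher, so its place in the counts above says little. The part of these cell types in the replication result was not tested.

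**Figure D3:**
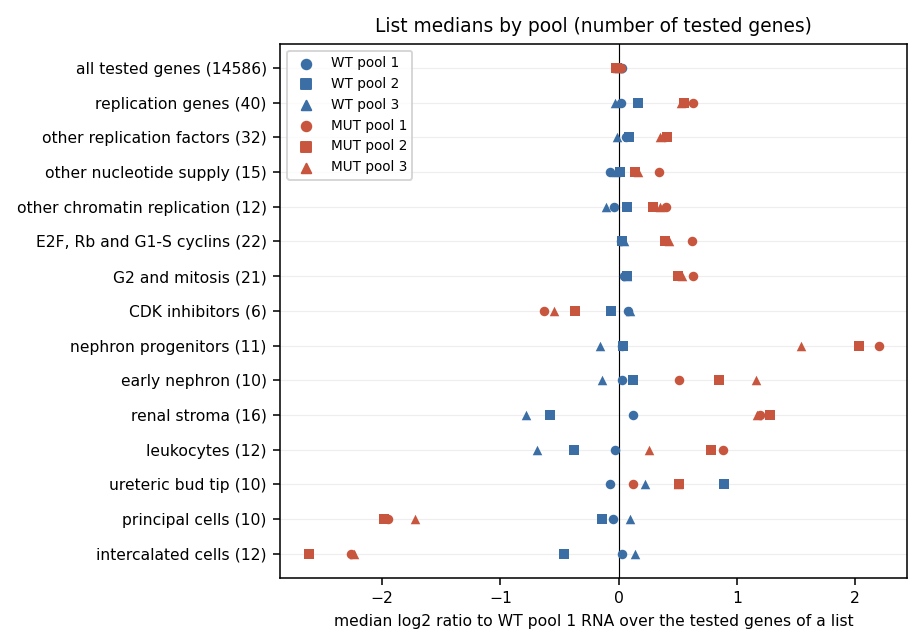
Median log2 ratio to WT pool 1 RNA (horizontal axis) over the tested genes of each list, with 1 point per pool, WT in blue and MUT in red, and the number of tested genes in brackets. The replication median is 0.53 to 0.63 in MUT pools, beside 1.54 to 2.20 for nephron progenitors, and the bud tip medians of the groups overlap.

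The deleted gene gave no check of the labels. The 1 probe of Bdkrb2 stayed below the detection call on all 6 arrays and in both dyes, with means of 0.02 ± 0.15 in WT and -0.02 ± 0.06 in MUT pools (SD, n = 3; exact two-sided permutation p = 0.8, where 0.1 is the smallest this design allows). Aqp2, Calb1, Gata3, Krt8, Hoxb7 and Ret, which mark the collecting duct and ureteric lineage, were well above background on all 6 arrays. The first 5 of these were called lower in MUT pools, by log2 differences of -1.67, -1.84, -1.63, -1.33 and -0.69, as were 13 of 15 markers of the ureteric trunk and collecting duct, while Ret was at -0.12 ± 0.38. The arrays had between 27022 and 31314 of 55681 probes well above background in Cy5, and their number limits the precision. The log2 differences are relative to the typical probe. After median centring in place of loess the median gene was 0.25 higher in MUT pools, with 18.2% of genes called higher and 6.33% lower. When the arrays were scaled on the spike-in control probes the median gene was 0.96 higher in MUT pools, with 63.1% of genes called higher. All 40 replication genes rose there, with a median of 1.53. The controls had median log2 ratios of -0.10, 0.28 and 0.93 on WT arrays and -0.77, -0.76 and -0.30 on MUT arrays. This scale thus varied widely among the WT pools too.

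Licensing of origins starts with the origin recognition complex. Of its 3 subunits in the set Orc6 rose, while Orc1 and Orc2 did not pass. Outside the set, Orc3, Orc4 and Orc5 were tested too and did not pass, as given below. Orc6 had log2 ratios of -0.05, 0.04 and -0.17 in the WT pools, in number order here and below, and 0.91, 0.53 and 0.37 in the MUT pools. The MUT pools were spread widely but all lay above the WT pools, and the difference was 0.66 ± 0.15 (SE, adjusted p = 0.0154), a fold of 1.58. Orc1, the subunit that leaves and rejoins the complex through the cell cycle, was at 0.32 ± 0.11 (adjusted p = 0.0652), with 1 of its 3 WT arrays not well above background. Orc2, a stable subunit, was at 0.18 ± 0.10 (adjusted p = 0.218). For both, all MUT pools still lay above all WT pools.

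The loading factors rose. Cdc6, the ATPase that recruits the helicase to the origin, had ratios of 0.34, 0.01 and -0.13 in WT pools and 0.67, 0.79 and 0.71 in MUT pools. It rose by 0.65 ± 0.13 at this probe and by 0.62 ± 0.10 at its other probe, where the WT pools lay closer together, from 0.25 to 0.31. Cdt1, its partner in loading, had ratios of 0.03, 0.20 and 0.03 in WT pools and 0.48, 0.61 and 0.46 in MUT pools, a rise of 0.43 ± 0.10 (adjusted p = 0.0195). Gmnn, which encodes geminin, the protein that binds CDT1 and blocks loading a second time, rose by 0.50 ± 0.10 (adjusted p = 0.00995).

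All 8 MCM genes rose, with a median of 0.72, and in each of them all MUT pools lay above all WT pools. Mcm3, a subunit of the helicase ring, had ratios of 0.05, 0.40 and 0.19 in WT pools and 1.20, 1.41 and 1.34 in MUT pools. The gap between the groups was larger than the whole spread within either. It rose by 1.10 ± 0.12 (adjusted p = 0.00083), or 2.15-fold, and 404 of all tested genes (2.77%) had a larger positive difference.

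The other ring subunits followed. Mcm7 had ratios of -0.08, 0.25 and -0.10 in WT pools and 1.28, 0.73 and 0.83 in MUT pools, so MUT pool 1 stood above the others, and it rose by 0.93 ± 0.17. Mcm6 had ratios of -0.02, 0.23 and 0.02 in WT pools and 1.19, 0.86 and 0.85 in MUT pools, with MUT pool 1 again the highest, and rose by 0.89 ± 0.13. Mcm4 had ratios of 0.30, 0.40 and 0.12 against 1.15, 1.18 and 0.93, a rise of 0.82 ± 0.12. Mcm2 and Mcm5 rose less, by 0.61 ± 0.12 and 0.45 ± 0.11. The ring holds 1 copy of each subunit, yet the array changes of its genes thus ranged from 0.45 to 1.10, although a difference between probes of that kind also reflects how each probe responds.

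Outside the ring, Mcm10, a factor that helps to activate the helicase, had ratios of 0.09, 0.47 and 0.27 in WT pools and 0.98, 0.85 and 0.80 in MUT pools. It rose by 0.60 ± 0.12 (adjusted p = 0.0103). Mcm8, a relative of the ring subunits with a role in recombination, rose by 0.47 ± 0.10 and 0.46 ± 0.12 at its 2 probes. Mcm9, its partner, was at -0.01 ± 0.13 (adjusted p = 0.959), and Mcmbp, which binds MCM proteins, at 0.12 ± 0.17.

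CDC45 and the GINS subunits join the ring to form the active helicase. Gins1 had ratios of 0.16, 0.26 and -0.01 in WT pools and 1.01, 0.75 and 0.84 in MUT pools. It rose by 0.73 ± 0.12 (adjusted p = 0.00387), a fold of 1.66, with wide clearance between the groups. Gins2 had ratios of -0.06, -0.19 and -0.28 against 0.39, 0.45 and 0.46 and rose by 0.61 ± 0.10, and the MUT pools lay within an SD of 0.04. Gins4 rose by 0.47 ± 0.11 and Cdc45 by 0.50 ± 0.12, with MUT pool 1 the lowest MUT pool for Cdc45, at 0.25.

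Gins3, the remaining subunit of the complex, did not pass. Its ratios were -0.13, -0.08 and -0.24 in WT pools and -0.21, -0.01 and -0.02 in MUT pools, so the groups overlapped, and the difference was 0.07 ± 0.11 (adjusted p = 0.669). Its promoter holds an E2F word before the start site, as printed above.

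Polymerase alpha and primase start each new strand. Pola1, the catalytic subunit, had ratios of 0.25, 0.26 and 0.01 in WT pools and 0.60, 0.76 and 0.86 in MUT pools, and rose by 0.57 ± 0.12 (adjusted p = 0.0113). The primase genes rose by similar amounts, Prim1 by 0.48 ± 0.10 and Prim2 by 0.50 ± 0.11. Pola2, the regulatory subunit, was at 0.41 ± 0.13 (adjusted p = 0.0578). Its MUT pools were at 0.52, 0.10 and 0.19 and its WT pools at -0.19, -0.05 and -0.17, so the groups did not overlap but the MUT pools were spread.

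Polymerases epsilon and delta copy the leading and lagging strands. Pole2, a structural subunit of epsilon, had ratios of 0.18, 0.04 and 0.03 in WT pools and 0.96, 0.98 and 0.87 in MUT pools. Both groups were tight, with SDs of 0.08 and 0.06, and it rose by 0.85 ± 0.10 (adjusted p = 0.00095), a fold of 1.80. Pole, the catalytic subunit, rose by 0.64 ± 0.12, and Pold1, that of delta, by 0.55 ± 0.11 with MUT pools from 0.68 to 0.72. Among accessory subunits outside the set, Pold2 rose by 0.42 ± 0.10, while Pold3, Pold4, Pole3 and Pole4 were at 0.19, 0.11, 0.07 and 0.10 and did not pass.

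Of the 6 genes of the clamp and its loader, 3 were called higher. Pcna, the sliding clamp, had ratios of 0.14, 0.01 and -0.15 in WT pools and 0.44, 0.66 and 0.60 in MUT pools, and rose by 0.57 ± 0.12 (adjusted p = 0.01). Of the loader, Rfc4 had ratios of 0.10, 0.36 and 0.10 in WT pools and 0.92, 0.66 and 0.85 in MUT pools. It rose by 0.62 ± 0.12 at this probe and 0.61 ± 0.11 at its other probe. Rfc1, the large subunit, rose by 0.47 ± 0.10, with MUT pools from 0.43 to 0.47.

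The other loader subunits did not pass, and whether they differ from those that did was not tested. Rfc2 was at 0.33 ± 0.12 (adjusted p = 0.0761) and Rfc5 at 0.29 ± 0.10 (adjusted p = 0.0668), both with MUT pool 1 at 0.39 and groups that did not overlap. Rfc3 was at 0.15 ± 0.10 (adjusted p = 0.339), and WT pool 2, at 0.31, lay among its MUT pools at 0.26, 0.30 and 0.35. Of the subunits of other loaders, Atad5, which unloads the clamp, rose by 0.93 ± 0.17, Dscc1 by 0.88 ± 0.11 and Chtf18 by 0.51 ± 0.14, while Chtf8 was at 0.00 ± 0.13.

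Of the enzymes that finish the lagging strand, Lig1, the ligase that joins its fragments, had ratios of 0.06, 0.32 and 0.16 in WT pools and 0.99, 0.71 and 0.99 in MUT pools. It rose by 0.72 ± 0.12 (adjusted p = 0.00471). Fen1, the flap nuclease, was the called member nearest the threshold, at 0.36 ± 0.11 (adjusted p = 0.0424) with MUT pools at 0.29, 0.53 and 0.43 and WT pools at 0.00, 0.15 and 0.04, and it was called in 10 of 19 alternative analyses.

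Single-stranded DNA is held by replication protein A, and its genes parted. Rpa2, the middle subunit, had ratios of -0.25, -0.11 and -0.12 in WT pools and 0.88, 0.55 and 0.50 in MUT pools. It rose by 0.80 ± 0.13 (adjusted p = 0.00343), or 1.74-fold. Rpa1, the large subunit, had ratios of -0.10, 0.15 and 0.10 in WT pools and 0.21, 0.04 and 0.00 in MUT pools, so the groups overlapped and the difference was 0.03 ± 0.11 (adjusted p = 0.86). Rpa3, the small subunit, was at 0.14 ± 0.13 (adjusted p = 0.453).

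Ribonucleotide reductase makes deoxynucleotides from a large and a small subunit. Rrm1, the large one, had ratios of -0.08, 0.09 and -0.07 in WT pools and 1.04, 0.61 and 0.52 in MUT pools, and rose by 0.74 ± 0.15 (adjusted p = 0.00971). Rrm2, the small one, whose protein is made in S phase, had ratios of 0.04, -0.27 and -0.06 in WT pools and 0.20, -0.07 and 0.00 in MUT pools. These overlapped, with a difference of 0.14 ± 0.13 (adjusted p = 0.444), and each gene was measured by 1 probe. Tyms, thymidylate synthase, rose by 0.55 ± 0.12, with MUT pools at 0.61, 0.39 and 0.65.

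The 2 large subunits of chromatin assembly factor 1, which places histones on new DNA, both rose. Chaf1a had ratios of 0.05, 0.22 and -0.09 in WT pools and 0.66, 0.74 and 0.84 in MUT pools, a rise of 0.69 ± 0.12 (adjusted p = 0.00456). Chaf1b rose by 0.47 ± 0.11 and 0.52 ± 0.11 at its 2 probes. In all 4 members with more than 1 tested probe, every tested probe was called higher.

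The genes that did not pass stood beside partners that did, and the difference between partners was taken within each array, where a shift common to all probes of the array cancels. The loess correction depends on brightness, and so need not cancel. For 6 such pairs, chosen after their values were seen and so given without a test, the difference was larger in every MUT pool than in every WT pool. Rpa2 minus Rpa1 was -0.15, -0.26 and -0.22 in WT pools and 0.67, 0.51 and 0.50 in MUT pools, a shift of 0.77. Gins1 minus Gins3 went from a mean of 0.29 ± 0.06 (SD, n = 3) to 0.95 ± 0.24, and Mcm3 minus Mcm5, where both rose, from 0.18 ± 0.07 to 0.84 ± 0.15. Rrm1 minus Rrm2 had the widest WT spread, from -0.12 to 0.37, below the MUT range of 0.52 to 0.84. Rfc4 minus Rfc3 and Orc6 minus Orc2 each shifted by 0.48. Since the pairs were picked for their values, the separation is a description of these genes. With median centring in place of loess the shifts were 0.74 for Rpa2 minus Rpa1, 0.63 for Gins1 minus Gins3, 0.70 for Mcm3 minus Mcm5, 0.54 for Rrm1 minus Rrm2, 0.50 for Rfc4 minus Rfc3 and 0.52 for Orc6 minus Orc2.

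**Figure D4:**
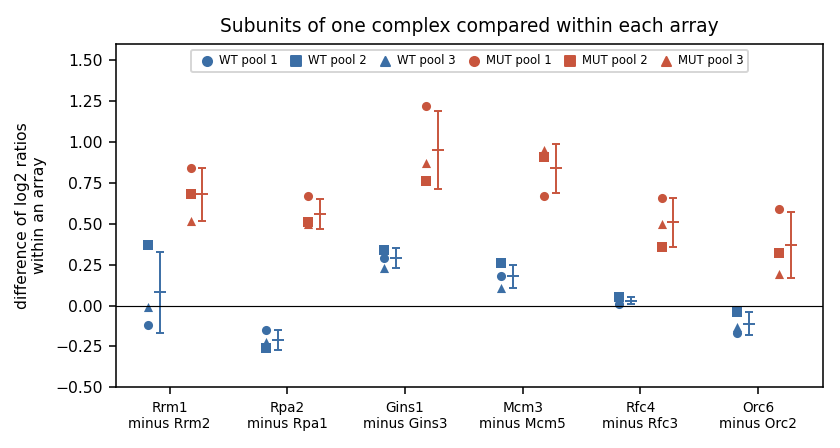
Difference of the log2 ratios of a pair of subunits on the same array (vertical axis) for 6 pairs, with 1 point per pool, WT in blue and MUT in red, and bars for the mean ± SD of 3 pools. MUT pools lie above WT pools in each pair, for example 0.50 to 0.67 against -0.26 to -0.15 for Rpa2 minus Rpa1.

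The replication genes outside the set of 40 were counted in the same way. Of 32 further replication factors, 16 rose and 0 fell (50%), with a median of 0.43. Atad5 and Dscc1, named above, rose most, and Top2a, the topoisomerase that untangles replicated DNA, rose by 0.85 ± 0.12. Timeless and Tipin, partners that steady the fork, rose by 0.82 ± 0.12 and 0.81 ± 0.13. The origin subunits Orc3, Orc4 and Orc5 were at 0.21, 0.22 and 0.34 and, with Orc1 and Orc2, did not pass. Cdc7, the kinase that fires origins, was at -0.13 ± 0.15, while its activator Dbf4 rose by 0.49 ± 0.12. The 16 became 10 without WT pool 3 and 5 with a slide row block. Calls became fewer over all genes in such fits too, for this list and those below. In the main fit 14% of all genes rose, against 9.76%, 10.3% and 6.83% without WT pools 1, 2 and 3. With a slide row block 3.43% rose.

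Nucleotide synthesis was mixed. Of 15 tested genes beyond the members, 6 rose and 2 fell. Dut, which clears dUTP, rose by 0.56 ± 0.12 and Tk1, the thymidine kinase of S phase, by 0.49 ± 0.11. Mthfd1 and Shmt1, enzymes of folate metabolism, fell by 0.98 ± 0.12 and 0.74 ± 0.11, but neither was called lower after median centring (-0.67 and -0.48) or after scaling on the spike-in controls, where Mthfd1 was at 0.00 and Shmt1 was 0.24 higher. No gene of this list rose without WT pool 3 or with a slide row block, and 2 did without WT pool 1. The count was 3 with pool number as a block, with no background subtraction, with a smaller offset, with the Cy5 channel alone, or without MUT pool 2.

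In chromatin replication, 4 of 12 genes rose and 0 fell, among them Dnmt1, the maintenance DNA methyltransferase, by 0.79 ± 0.18, and Nasp, a histone chaperone, by 0.62 ± 0.14. Without WT pool 1 or WT pool 3, or with a slide row block, the count was 0.

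Regulators of S phase entry were next. Of 22 tested E2F, Rb and G1-S cyclin genes, 11 rose and 1 fell. Ccnd2, a D-type cyclin, rose by 0.99 ± 0.14 and Ccna2, the cyclin of S phase, by 0.79 ± 0.11, while Ccnd1 was at 0.15 ± 0.10 (adjusted p = 0.307). E2f1 rose by 0.46 ± 0.13 (adjusted p = 0.0311), with E2f3, E2f7 and E2f8 at 0.77, 0.76 and 0.74, all called. Rb1, the retinoblastoma gene that restrains E2F, fell by 0.81 ± 0.14, but was not called after median centring (-0.54) and was 0.17 higher after scaling on the spike-in controls. The 11 became 6, 7 and 5 without WT pools 1, 2 and 3, 1 with a slide row block and 7 in the authors' deposited values.

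CDK inhibitors hold back S phase entry. Of 6 tested genes 0 rose and 3 fell, with medians of -0.63, -0.37 and -0.55 in MUT pools against 0.08, -0.06 and 0.10 in WT pools. Cdkn2b, an inhibitor of the kinases that pair with cyclin D, fell by 1.09 ± 0.14 and Cdkn1a, the p53 target p21, by 0.83 ± 0.10. Cdkn2d fell by 0.50 ± 0.11. After scaling on the spike-in controls Cdkn1a and Cdkn2d were 0.15 and 0.48 higher, and Cdkn2b, at -0.11, was not called, so these falls are relative to the typical gene. After median centring Cdkn2b alone of the 3 was called lower, at -0.99, with Cdkn1a at -0.58 and Cdkn2d at -0.21. Cdkn1b was at -0.37 ± 0.15 (adjusted p = 0.105) and Cdkn1c at -0.13 ± 0.34.

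Of the genes of G2 and mitosis, 17 of 21 tested were called higher and 0 lower, with a median of 0.56. Mki67, the proliferation antigen, rose by 0.64 ± 0.10 (adjusted p = 0.00276), Cenpe, a centromere motor, by 0.99 ± 0.11 and Kif20a, a kinesin of cell division, by 0.89 ± 0.15. The 17 became 11, 11 and 10 without WT pools 1, 2 and 3, 10 without MUT pool 3 and 1 with a slide row block.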

How the data were processed

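Pools were labelled in Cy5 and WT pool 1, the common reference, in Cy3, from 0.5 µg of total RNA, per the labels' protocols. Per the submitters' processing notes, scans were read by the authors with Agilent's Feature Extraction software (version 10.7.3.1). The deposited scanner tables give each spot's intensity (median signal, median local background) and a log10 ratio, which the deposited value table repeats within 0.00499. No dyes were swapped.

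Background was corrected by normexp (offset 50), and log2 ratios of the deposited intensities were normalized by loess within arrays. Control spots and outlier spots (196 to 403 an array) were left out. A probe was tested if every array of at least 1 group had it well above background in Cy5, which kept 29003 of 55681. MUT and WT were compared with limma 3.58.1 (lmFit, eBayes; R 4.3.3) over 6 arrays, and p-values were adjusted over all tested probes. Errors after ± are the SE of this fit (3 pools per group) unless named SD. The labels do not say that pools came from separate litters, so p-values measure the spread between these pools. Each gene is represented by its brightest tested probe. Accessions were matched to the RefSeq table of GRCm38.p6, which named 27509 probes, and promoter sequences are RefSeq's in that build. Figures were drawn with matplotlib 3.10.9 in Python 3.11.15.

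The members, gene lists and the rule for named genes were chosen with earlier results of these data known. The rule names all members, gives pool values for the called member with the largest change in each complex, and names the 2 largest called rises and falls of each other list with Mki67, Top2a, E2f1 and Gmnn. Pool values and genes beyond the rule were chosen after their values were seen. On simulated data of 29003 probes, 67, 67 and 66 probes were changed by a log2 of 0.5, 1 and 2. The fit called 8.96%, 50.7% and 86.4% of them, with median estimates of 0.365, 0.836 and 1.55, and 7 of its 104 calls were false. Far fewer probes changed there than the 7584 called in the data, which makes the adjusted threshold stricter. These shares are therefore not the sensitivity of the main fit.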

Additional observations from a re-analysis of the deposited data

How the results depend on the processing

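The 19 alternative analyses changed how many replication genes passed, but called none of them lower. The count of 31, where 14% of all genes rose, was between 24 and 40 in 17 of them. This range was set after the counts were seen. It leaves out the slide row block and the fit without WT pool 3. Its top came with spike-in scaling, where 63.1% of all genes rose. With a slide row block the count was 8, where 3.43% of all genes rose. With 1 pool left out it ranged from 15 to 31, lowest without WT pool 3, where 6.83% of all genes rose. Without MUT pool 1 the count stayed at 31. Over all probes 7584 were called, against 19460 with spike-in scaling, 2194 with a slide row block and 3831 to 9536 with 1 pool left out. The share of called probes that were higher, 44.2%, became 77.2% with median centring, 99% with spike-in scaling and 31.5% with a slide row block. The cause of these shifts was not tested.

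The median of the 40 genes (0.55) was 0.87 with median centring, 1.53 with spike-in scaling, 0.63 with Cy5 alone, 0.71 in the authors' values and 0.49 to 0.59 with 1 pool left out. The median of all genes moved too, from -0.02 to 0.25 with median centring and to 0.96 with spike-in scaling. Median centring gave 0.76 for licensing, 1.07 for MCM, 0.79 for CDC45 and GINS, 0.81 for polymerase alpha, 0.96 for polymerases delta and epsilon, 0.71 for the clamp, 0.88 for the lagging strand, 0.76 for single-strand binding, 0.87 for nucleotide supply and 0.91 for chromatin assembly. Spike-in scaling gave 1.41, 1.70, 1.48, 1.47, 1.62, 1.38, 1.52, 1.40, 1.53 and 1.56 in the same order. Cy5 alone gave 0.60 for licensing, 0.89 for MCM, 0.59 for polymerase alpha, 0.83 for delta and epsilon, 0.48 for the clamp, 0.64 for the lagging strand and 0.68 for nucleotide supply. The authors' values gave 0.76 for licensing, 0.71 for CDC45 and GINS, 0.63 for polymerase alpha, 0.75 for delta and epsilon, 0.46 for the clamp, 0.62 for the lagging strand and 0.82 for nucleotide supply. A smaller offset gave 0.53 for licensing, 0.64 for CDC45 and GINS and 0.69 for nucleotide supply. CDC45 and GINS were at 0.63 without background subtraction and 0.59 with array weights, and licensing at 0.54 with the strict filter. A slide row block gave 0.63 for the lagging strand and 0.76 for delta and epsilon. With 1 pool left out CDC45 and GINS ranged from 0.45 to 0.60, delta and epsilon from 0.57 to 0.75 and the clamp from 0.35 to 0.43.

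Among other lists, spike-in scaling called 2 CDK inhibitors higher and 0 lower, 20 E2F and cyclin genes higher and 0 lower, 12 chromatin genes higher, 13 nucleotide genes higher and 0 lower, and 32 replication factors higher. It turned Cdkn1a to 0.15, Cdkn2d to 0.48, Rb1 to 0.17 and Shmt1 to 0.24. Median centring called 1 CDK inhibitor, 0 E2F and cyclin genes and 0 nucleotide genes lower, and 7 chromatin genes higher. A slide row block left 1 E2F and cyclin gene, 1 mitosis gene, 0 chromatin genes, 0 nucleotide genes and 5 replication factors higher, and 0 E2F and cyclin genes and 1 nucleotide gene lower. The authors' values called 7 E2F and cyclin genes higher, and array weights 2 lower. With 1 pool left out, genes called higher were 5 to 12 for E2F and cyclins, 10 to 18 for mitosis, 0 to 6 for chromatin, 0 to 5 for nucleotides and 10 to 19 for replication factors, and E2F and cyclin genes called lower were 1 to 2. Nucleotide genes called higher were 3 without background subtraction, with a smaller offset and with Cy5 alone.

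Same-numbered pools share only a number. The deviations of the pools numbered 1, 2 and 3 correlated at 0.14, 0.07 and 0.20. With the pool number as a replicate block 30 replication genes rose, and the count of nucleotide genes called higher went from 6 to 3, the only count it moved by more than 1.5 times.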
